A study of Mus musculus with 10 samples.

Results

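The ATP-binding cassette (ABC) transporter family was examined in whole mouse embryos with and without the transcription factor *Rreb1*. Its members were taken by symbol, as every gene whose name begins with Abca, Abcb, Abcc, Abcd, Abce, Abcf or Abcg and continues with a digit, and no measured value entered this choice. The rule gave 46 of the 20974 genes measured, with 12 in subfamily A, 10 in B, 10 in C, 4 in D, 1 in E, 3 in F and 6 in G. RNA-sequencing was performed on single embryos at E7.5 from crosses between *Rreb1*+/- mice, of which 5 were *Rreb1*+/+ (wild-type) and 5 were *Rreb1*-/- (mutant), numbered as replicates 2 to 6 in each genotype. Mutants carried a CRISPR deletion of most of the coding sequence in exon 6 of *Rreb1*, the study made a larger and a smaller deletion without stating which these embryos carried, and the labels name no other allele and no treatment in either genotype. The animals are labelled as CD1 and the methods describe a mixed stock with other strains behind it. By the study's account, the parietal endoderm was dissected from each embryo for genotyping and the library was made from the rest of the conceptus. Whether this removal was complete was not tested. The labels do not say which embryos were littermates. The study reports mutants from E7.5 onwards as smaller than littermates and delayed in morphology and somite number. The part of developmental stage in the differences below was not tested.

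Values are normalized counts, that is, reads per gene divided by 1 size factor per embryo. Embryos had between 31467767 and 35786876 counted reads. Counts over the whole *Rreb1* gene were higher in mutants (3988 to 5715) than in wild-type embryos (2365 to 2924), with a log2 fold change of 0.91 ± 0.10 (SE) and an adjusted p of 0.000482, and a gene-level count does not test the loss of part of 1 exon. All 5 wild-type embryos and mutant replicate 2 had *Xist* counts of 45657 or more and Y-linked sums of 3.82 or less, whereas mutant replicates 3 to 6 had *Xist* counts of 61.3 or less and Y-linked sums of 5849 or more. Genotype and sex therefore could be told apart only through mutant replicate 2. Replicates 5 and 6 of both genotypes stood apart from replicates 2 to 4, and values within each set are given for some members and markers.

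ABC proteins use the energy of ATP binding and hydrolysis, and most of them move substrates across membranes. A full transporter joins a pair of membrane domains to a pair of ATP-binding domains, while smaller members carry 1 of each and work as dimers. Each ATP-binding domain contains the ABC signature motif, which closes over the ATP of the opposite domain. Subfamily A moves lipids, B and C contain the drug and bile salt exporters as well as mitochondrial and lysosomal carriers, D acts at peroxisomes and lysosomes, and G exports sterols and drugs. Subfamilies E and F have no membrane domain and act on ribosomes. In early embryos the visceral endoderm (VE) and trophoblast take up and pass on maternal nutrients, and exporters at their surfaces limit the entry of foreign compounds.

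*Abcb1a* and *Abcb1b* both encode P-glycoprotein, the best known multidrug exporter, which is made from a single gene in humans. The pair lie next to each other on chromosome 5, and because they are close copies, reads can fit both. Their coding sequences (3828 bases each, GENCODE M21, GRCm38) were identical at 3364 of 3819 aligned bases (88.09%), against 75.99% for *Abcb1a* and *Abcb4* and 74.59% for *Abcb1b* and *Abcb4*. The longest identical stretch was 338 coding bases. A piece of it that holds a signature motif is shown, with the 15 bases of the motif in capitals, as an example of a site where a read cannot be given to 1 of the genes. It lies at chr5:8702567-8702886 in *Abcb1a* and at chr5:8824887-8825206 in *Abcb1b*, on the plus strand in both, and is interrupted by an intron.
*Abcb1a* and *Abcb1b*: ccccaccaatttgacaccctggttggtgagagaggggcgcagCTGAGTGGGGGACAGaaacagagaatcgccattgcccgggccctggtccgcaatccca
The least alike stretch of 60 coding bases, at chr5:8714924-8714983 in *Abcb1a* and chr5:8827363-8827422 in *Abcb1b*, was identical at 35 positions. It is shown with the differing bases in capitals, as an example of a site where a read tells the genes apart.
*Abcb1a*: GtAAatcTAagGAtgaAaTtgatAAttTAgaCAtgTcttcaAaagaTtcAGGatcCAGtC
*Abcb1b*: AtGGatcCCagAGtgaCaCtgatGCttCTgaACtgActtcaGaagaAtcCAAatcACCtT
Over the annotated exons, 16.29% of the 50-base words of *Abcb1a* also occurred in *Abcb1b* and 11.07% of those of *Abcb1b* in *Abcb1a*, so most words of either gene did not occur in the other. Of the other members, *Abcb6* shared 50.0% of its words with an overlapping gene model (Gm29253), so its counts are uncertain, and *Abcb4* shared 2.83%. All remaining members shared 2.63% or less. *Abcg5* and *Abcg8* overlap on opposite strands of chromosome 17, and since the sources used here do not state whether strand was used in counting, their counts are also uncertain.

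The 250 bases before the start of *Abcb1b* and *Abcc4*, the pair of members with the smallest p-values, are shown from the RefSeq promoter table (GRCm38.p6). Capitals mark the GC box (GGGCGG, or CCGCCC on the other strand) and the CCAAT box (CCAAT, or ATTGG). The *Abcb1b* window is chr5:8797897-8798146 on the plus strand.
*Abcb1b*: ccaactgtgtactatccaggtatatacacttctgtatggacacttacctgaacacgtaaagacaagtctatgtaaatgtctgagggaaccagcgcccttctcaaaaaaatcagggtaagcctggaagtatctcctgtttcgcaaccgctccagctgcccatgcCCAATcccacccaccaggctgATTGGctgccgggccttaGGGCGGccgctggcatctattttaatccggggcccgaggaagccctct
The *Abcc4* window is chr14:118706220-118706469 and is read on the minus strand.
*Abcc4*: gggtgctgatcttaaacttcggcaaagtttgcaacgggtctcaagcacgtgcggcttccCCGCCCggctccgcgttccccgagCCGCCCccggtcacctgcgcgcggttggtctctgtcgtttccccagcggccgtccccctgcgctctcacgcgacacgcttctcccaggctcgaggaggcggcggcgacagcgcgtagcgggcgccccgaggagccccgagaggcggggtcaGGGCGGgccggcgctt
The *Abcb1b* window held 1 GC box and 2 CCAAT boxes at 52.8% GC, whereas the *Abcc4* window held 3 GC boxes and no CCAAT box at 72.0% GC. The median over all 27025 promoters was 52.0% GC, and 32.94% held a GC box and 34.46% a CCAAT box. A pair of cores of the known *Rreb1* motif, CCCCAAAC and ACCACCC, were searched on both strands, and neither occurred in the windows of *Abcb1b*, *Abcc4*, *Abcb11* or *Abcb1a*. They occurred in 1.562% and 3.863% of all promoters. For *Abcb1a* the RefSeq start lies 92986 bases from the GENCODE start, so its window is not shown. *Abcg4* and *Abcd2* were not matched.

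Levels spanned more than 4 orders of magnitude, from the ribosome factors of subfamilies E and F down to transporters at background. Levels between genes are compared as normalized counts per kb of annotated exon. The ribosome-associated factor *Abcf2*, at 3011 ± 93.3 per kb in wild-type embryos (SD, n = 5), and the ribosome recycling factor *Abce1*, at 2945 ± 265, were highest and did not differ beyond their spread. *Abcf1*, which acts in translation initiation, followed at 2135 ± 106. Well below them came the ribosome-associated factor *Abcf3* (595 ± 21.1) and the drug and urate exporter *Abcg2* (548 ± 36.7). The cyclic nucleotide exporter *Abcc5* (484 ± 32.6), the erythroid mitochondrial carrier *Abcb10* (446 ± 65.7) and the peroxisomal carrier *Abcd3* (435 ± 28.5) were in the same range as these, and of these 5 each overlapped the next within its SD.

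In subfamily A the lung surfactant lipid carrier *Abca3* led (234 ± 23.4 per kb), followed by the lysosomal carrier *Abca2* (49.6 ± 9.70) and the cholesterol exporter *Abca1* (49.2 ± 9.78), which did not differ from each other beyond their spread. In subfamily D the vitamin B12 carrier *Abcd4* (192 ± 23.9) came after *Abcd3*, and in subfamily G the sterol exporter *Abcg1* (25.2 ± 4.74) came after *Abcg2*. In subfamily C the canalicular exporter *Abcc2* (306 ± 48.9) and the prostaglandin and cyclic nucleotide exporter *Abcc4* (256 ± 20.8) followed *Abcc5* and overlapped within their SD. P-glycoprotein was low in comparison, with 32.2 ± 6.55 per kb for *Abcb1b* and 3.32 ± 1.33 for *Abcb1a*. At the bottom, 8 members had a mean under 15 in both genotypes and were not tested: *Abca12*, *Abca13*, *Abca16*, *Abca17*, *Abcb5*, *Abcc3*, *Abcc9* and *Abcg3*. Their highest value in any embryo was 19.1 normalized counts, in *Abcc9*.

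**Figure D1:**
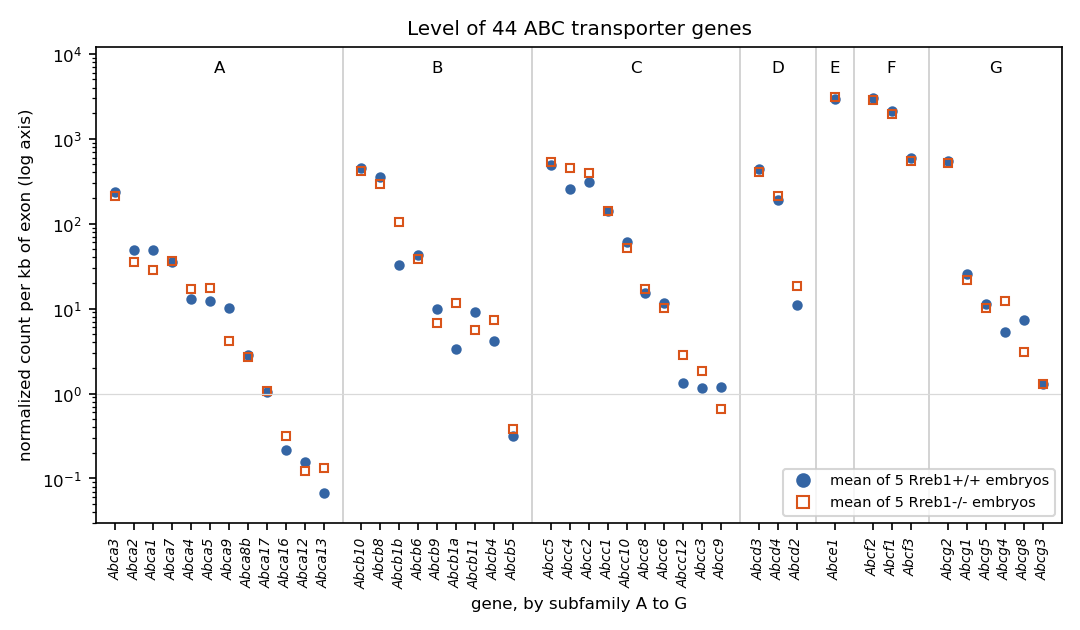
Mean level of 44 of the 46 ABC genes in 5 *Rreb1*+/+ embryos (filled circles) and 5 *Rreb1*-/- embryos (open squares), as normalized counts per kb of exon on a log axis, by subfamily. The ribosome factors *Abce1*, *Abcf2* and *Abcf1* lie at the top, and the symbols of *Abcb1a*, *Abcb1b*, *Abcc4*, *Abcd2* and *Abcg4* are set apart with the mutant mean above.

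Loss of *Rreb1* was accompanied by higher transcript levels of 5 ABC genes and lower levels of 1. *Abcb1a*, *Abcb1b*, *Abcc4*, *Abcd2* and *Abcg4* rose and *Abcb11* fell at an adjusted p under 0.05 (limma), and 32 of the 38 tested members were not called. Over all 15603 genes tested, 3.11% were called higher and 1.15% lower. The fold changes of the called genes ran from −0.69 for *Abcb11* to 1.79 for *Abcb1a* on the log2 scale, and only *Abcb1a*, *Abcb1b* and *Abcg4* passed a 2-fold change. In 6 members, the same as those called, all mutants lay on 1 side of all wild-type embryos, which held for 6.7% of all genes tested. The median log2 fold change of the family was −0.09, beside −0.02 over all genes tested, with 17 members above 0 and 21 below. The 5 higher genes were called in each of the 10 fits that left out 1 embryo. Among members not called, 22 of 32 had a log2 fold change smaller than 0.3 in size. In whole-embryo libraries, fewer cells of a type and less RNA per cell cannot be told apart.

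By subfamily, the calls fell in B (2 higher and 1 lower of 9 tested), C (1 higher of 8), D (1 higher of 4) and G (1 higher of 5). None of the 8 tested members of subfamily A, the 1 of E or the 3 of F was called, although 5 members of A had an unadjusted p under 0.05. The median log2 fold change was 0.17 in C, 0.02 in D, −0.08 in B, −0.13 in F, −0.14 in A and −0.21 in G. Members lie on 18 chromosomes, and 0 of 46 were within 20 Mb of *Rreb1*, so that none sits in the stretch around the deletion. With the replicate number as a block, 6 were called higher and 1 lower (4.59% and 2.28% of all genes), as *Abcc2* and *Abca2* joined and *Abcb11* was lost.

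**Figure D2:**
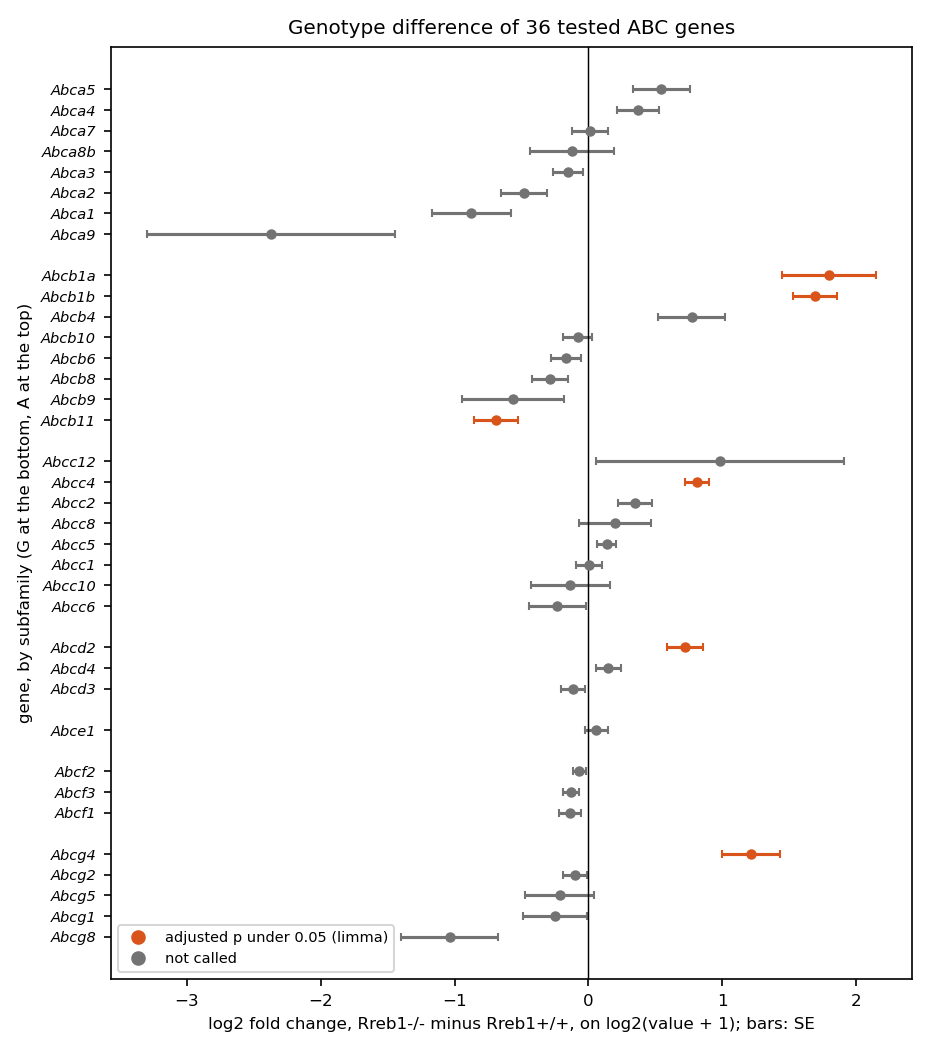
Log2 fold change (*Rreb1*-/- minus *Rreb1*+/+, on log2 of the value plus 1) of 36 of the 38 tested ABC genes by subfamily, with bars for the SE; orange marks genes at an adjusted p under 0.05. Called genes lie from −0.69 (*Abcb11*) to 1.79 (*Abcb1a*), and *Abca9* at −2.37 has the widest bar among genes left of 0 and was not called.

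P-glycoprotein genes showed the largest rise among the called members. In wild-type embryos, replicates 2 to 6 in that order (the order used throughout), *Abcb1b* had 263, 299, 307, 238 and 178 normalized counts. Mutant embryos had 981, 931, 692, 696 and 828. Every mutant lay above every wild-type embryo, and no value of one group came near the other. Means were 257 ± 52.3 and 826 ± 132 (SD, n = 5), a ratio of 3.21. The log2 fold change was 1.69 ± 0.16 (SE) with an adjusted p of 0.000184, and the exact two-sided permutation test gave 0.00794, the smallest p that the arrangements of 5 and 5 embryos allow.

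The paralog *Abcb1a* was far lower in counts and rose to a like extent. Wild-type embryos had 25.9, 7.03, 19.1, 23.0 and 16.0 and mutants 76.3, 44.7, 53.1, 46.5 and 97.0. The groups did not overlap, and the lowest wild-type value, in replicate 3, rests on 7 reads. The log2 fold change was 1.79 ± 0.35 with an adjusted p of 0.0145 (permutation p = 0.00794, exact). Since reads can fit both genes, their counts were also added for each embryo. The sum was 289, 306, 327, 261 and 194 in wild-type embryos and 1058, 976, 745, 743 and 925 in mutants. It was separated in the same way, with a log2 fold change of 1.70 ± 0.15, an adjusted p of 0.000135 and 1.58 to 1.76 when each embryo was left out in turn. *Abcb1a* made up 2.30% to 8.97% of the sum in wild-type embryos and 4.58% to 10.5% in mutants (exact two-sided permutation p = 0.857).

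Of the genes around the pair, most did not pass the test. *Abcb4*, the phosphatidylcholine flippase of bile that lies next downstream, had 32.6, 38.1, 54.4, 35.5 and 33.0 in wild-type and 74.2, 58.2, 79.6, 39.0 and 89.7 in mutant embryos. Mutant replicate 5 and wild-type replicate 4 overlapped, and the log2 fold change of 0.77 ± 0.25 did not pass (adjusted p = 0.121). Without mutant replicate 5 it was 0.95 with an adjusted p of 0.0364. Of 12 other measured genes within 500 kb, 10 were tested and 1 was called: *Adam22*, a cell surface protein of the ADAM family, with 211 ± 25.7 and 349 ± 83.8 (log2 fold change 0.70 ± 0.17, adjusted p = 0.0393), a call that was lost without any 1 wild-type embryo or mutant replicate 4, 5 or 6 (adjusted p up to 0.0962). The DNA replication kinase subunit *Dbf4* (0.03), the peroxisomal acyltransferase *Crot* (0.02), *Slc25a40* (−0.03) and *Dmtf1* (0.01) had log2 fold changes near 0. An antisense gene that overlaps the start of *Abcb1b*, *Gm5106*, had at most 3.01 normalized counts in a wild-type and 5.31 in a mutant embryo.

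**Figure D3:**
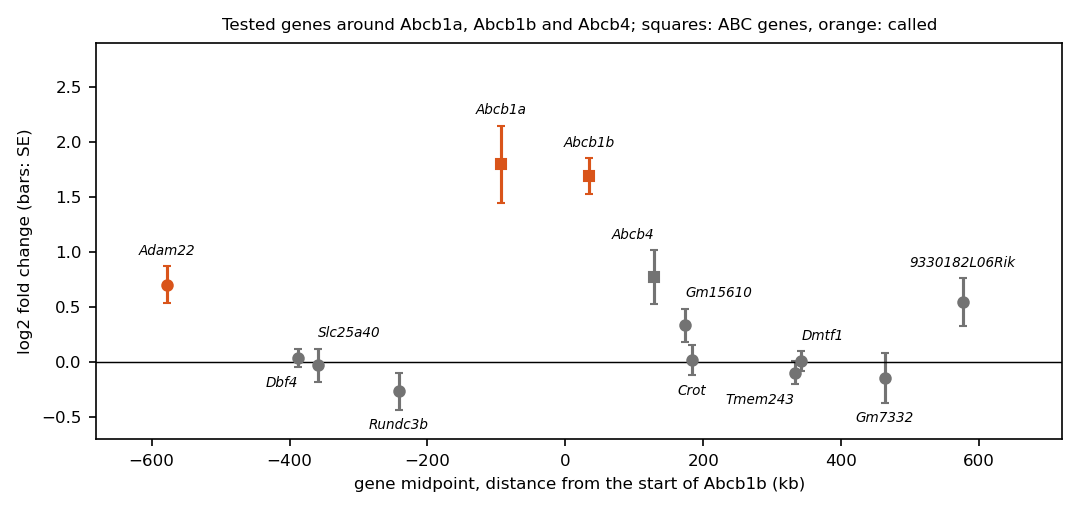
Log2 fold change (with SE) of the tested genes around *Abcb1a*, *Abcb1b* and *Abcb4* against the distance of each gene's midpoint from the start of *Abcb1b* in kb; squares are ABC genes and orange marks an adjusted p under 0.05. *Abcb1a* (1.79) and *Abcb1b* (1.69) stand above all other genes in the window, and *Adam22* (0.70) is the other called gene.

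Of 7 tested members listed here under multidrug efflux besides P-glycoprotein, 1 rose, and not all of the 7 are established drug exporters. *Abcc4* exports cyclic nucleotides, prostaglandins and drugs. It had 1714, 1765, 1462, 1706 and 1523 normalized counts in wild-type and 3281, 2786, 2672, 2517 and 3109 in mutant embryos. Every mutant was above every wild-type embryo, and the spread within each genotype was small beside the gap. The mean rose from 1634 ± 133 to 2873 ± 315, a ratio of 1.76 (log2 fold change 0.81 ± 0.09, adjusted p = 0.000378). In counts, this was the largest gain in the family among called genes. The other members of this list were not called. *Abcg2* and *Abcc1*, which export drugs, had log2 fold changes of −0.10 ± 0.09 and 0.00 ± 0.10. *Abcc5* had 0.14 ± 0.07, *Abcc6* had −0.23 ± 0.21 and *Abcc10* had −0.14 ± 0.29. *Abcc12*, a poorly characterised member, had 9.59, 15.1, 17.2, 0.960 and 0.942 in wild-type and 31.8, 27.0, 31.9, 1.86 and 3.13 in mutant embryos. Its values followed the replicate set in both genotypes, and the difference of 0.98 ± 0.93 did not pass (adjusted p = 0.625).

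Among 6 exporters of cholesterol and phospholipid, 1 rose. *Abcg4*, a dimeric transporter that loads sterols onto lipoprotein particles and is best known in brain, had 25.9, 23.1, 20.1, 40.3 and 30.1 in wild-type and 55.1, 66.5, 57.3, 82.7 and 62.6 in mutant embryos. The groups did not overlap, and the mean rose from 27.9 ± 7.88 to 64.8 ± 10.9 (log2 fold change 1.21 ± 0.22, adjusted p = 0.00876). Its close relative *Abcg1* had −0.25 ± 0.24 (adjusted p = 0.629). *Abca1*, which makes nascent HDL, had 394, 592, 408, 550.3 and 604 in wild-type and 359, 161, 168, 332 and 471 in mutant embryos. The mutant values of replicates 3 and 4 were the lowest, only that of replicate 6 lay within the wild-type range, and the log2 fold change of −0.87 ± 0.29 did not pass (adjusted p = 0.139). *Abcg5* and *Abcg8* together form the sterol exporter of gut and liver. *Abcg8* had 28.8, 35.1, 44.9, 10.6 and 17.0 in wild-type and 10.6, 9.35, 10.6, 13.9 and 12.5 in mutant embryos, so that wild-type replicates 5 and 6 resembled the mutants (log2 fold change −1.04 ± 0.36, adjusted p = 0.154, and −1.32 with 0.0472 without wild-type replicate 5). *Abcg5* had −0.21 ± 0.26. *Abca7*, another phospholipid exporter, had 0.01 ± 0.13.

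Of 15 genes of sterol regulation and lipoproteins, all tested, 1 was called. The intestinal cholesterol importer *Npc1l1* rose from 164 ± 20.8 to 412 ± 119 normalized counts (1.29 ± 0.18, adjusted p = 0.00201). The liver X receptors, which switch on *Abca1* and *Abcg1*, gave −0.64 ± 0.18 for *Nr1h3* (adjusted p = 0.0698) and −0.07 ± 0.20 for *Nr1h2*. The median log2 fold change of this list was 0.00, beside −0.02 over all genes.

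Of 3 transporters listed here under bile salt and canalicular export, 1 fell, and this list does not hold every transporter of the bile canaliculus. *Abcb11*, the bile salt export pump, had 41.3, 42.2, 45.8, 50.9 and 53.7 in wild-type and 30.7, 27.0, 29.7, 24.2 and 31.3 in mutant embryos. The groups did not overlap, and the mean fell from 46.8 ± 5.42 to 28.6 ± 2.97 (log2 fold change −0.69 ± 0.17, adjusted p = 0.0406, permutation p = 0.00794, exact). This call was lost whenever 1 embryo of either genotype was left out (adjusted p 0.0531 to 0.113) and with the replicate block (0.0587). *Abcc2*, which exports conjugated bilirubin, had 3302, 2677, 2355, 2256 and 2464 in wild-type and 4052, 3621, 3289.7, 2631 and 3041 in mutant embryos. Each mutant was above the wild-type embryo of its own number, although the groups overlapped. The log2 fold change of 0.35 ± 0.13 did not pass in the comparison without a block (adjusted p = 0.18) and passed with it (0.013).

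Several bile acid and xenobiotic partners were low or not measured. Of 19 genes listed, 15 were measured and 12 tested, and 2 rose. *Nr1h4*, the bile acid receptor that switches on *Abcb11*, had 12.5, 16.1, 12.4, 4.80 and 5.65 in wild-type and 45.6, 56.1, 41.4, 68.8 and 67.8 in mutant embryos. It thus rose (2.43 ± 0.33, adjusted p = 0.00168) while *Abcb11* fell, and its log2 fold change was 1.73 in replicates 2 to 4 and 3.48 in 5 and 6 (interaction adjusted p = 0.253). The organic anion importer *Slco3a1* rose from 522 ± 111 to 1479.6 ± 169 (1.52 ± 0.14, adjusted p = 0.000158). The xenobiotic receptor *Nr1i2*, which drives P-glycoprotein in liver, had means of 7.32 and 4.13 and was not tested. The receptors *Nr1i3* (−0.06 ± 0.21) and *Ahr* (0.01 ± 0.20) and the oxidative stress factor *Nfe2l2* (−0.10 ± 0.08) were not called.

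**Figure D4:**
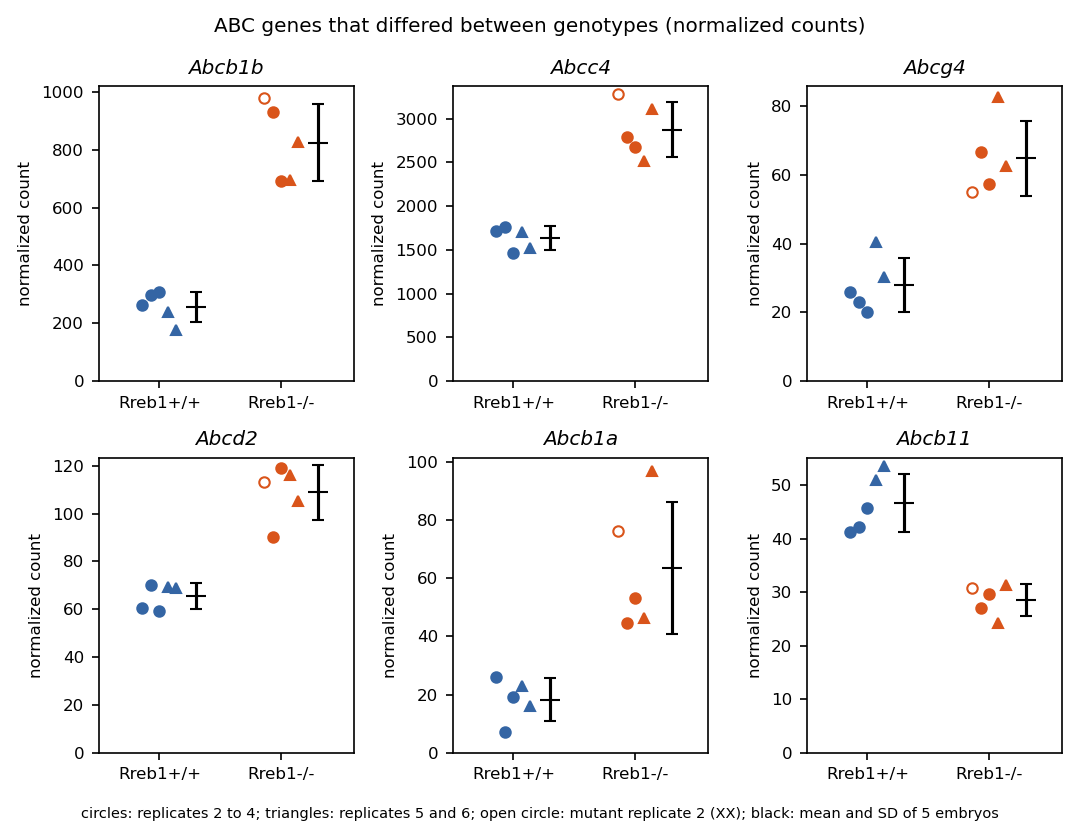
Normalized counts of the 6 called ABC genes in each *Rreb1*+/+ embryo (blue) and *Rreb1*-/- embryo (orange); circles are replicates 2 to 4, triangles replicates 5 and 6, the open circle mutant replicate 2, and black bars give the mean and SD of 5 embryos. In each panel the genotypes do not overlap, with mutants above in 5 genes and below in *Abcb11*.

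Among the peroxisomal carriers of fatty acids, 1 rose. *Abcd2*, which imports very long chain fatty acids, had 60.4, 70.3, 59.2, 69.1 and 68.8 in wild-type and 113, 90.4, 119, 116 and 105 in mutant embryos. The groups did not overlap, and the mean rose from 65.6 ± 5.29 to 109 ± 11.5 (log2 fold change 0.72 ± 0.13, adjusted p = 0.0114). *Abcd3* had a log2 fold change of −0.11 ± 0.09 and was not called. *Abcd2* remained below *Abcd3* in both genotypes, with 18.3 per kb in mutants beside 405 for *Abcd3*. None of 13 genes of peroxisomal beta-oxidation and import was called (limma, 4 at an unadjusted p under 0.05), and their median log2 fold change was −0.13.

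No mitochondrial carrier was called. *Abcb10* had a log2 fold change of −0.08 ± 0.11, *Abcb8*, a subunit of a mitochondrial potassium channel, had −0.29 ± 0.13, and the porphyrin carrier *Abcb6* had −0.17 ± 0.11. None of 19 partner genes of heme and iron-sulfur synthesis was called (limma, 5 at an unadjusted p under 0.05). The erythroid heme enzyme *Alas2* had 114, 63.2, 43.0, 230.5 and 218 in wild-type and 36.0, 26.0, 19.1, 143 and 130.4 in mutant embryos, and was called lower with the replicate block or the replicate set as a term (−1.09 ± 0.65, adjusted p = 0.416 without the block and 0.013 with it).

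The 4 lysosomal carriers were not called either. *Abca2* had 287, 422, 445, 407 and 509 in wild-type and 214, 323, 341, 322 and 277 in mutant embryos. Each mutant was below the wild-type embryo of its number, while the groups overlapped. The log2 fold change was −0.48 ± 0.17 with an adjusted p of 0.164, and 0.0375 with the replicate block. *Abca5* had 0.54 ± 0.21 (adjusted p = 0.211), *Abcd4* had 0.15 ± 0.10, and the peptide carrier *Abcb9* had −0.56 ± 0.38.

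No factor of translation was called. *Abce1*, which splits ribosomes after termination, had 16152 to 20068 normalized counts in wild-type and 16328 to 21391 in mutant embryos, and its log2 fold change was 0.06 ± 0.08. *Abcf1*, *Abcf2* and *Abcf3* had −0.14 ± 0.08, −0.07 ± 0.05 and −0.13 ± 0.06. Of 13 tested partners in ribosome recycling and initiation none was called (limma, 1 at an unadjusted p under 0.05), with log2 fold changes from −0.28 to 0.32.

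The remaining members lie at low levels or outside these groups. The retinal lipid flippase *Abca4* had 0.37 ± 0.16 (adjusted p = 0.25) and *Abca3* had −0.15 ± 0.11. *Abcc8*, the sulfonylurea receptor of the potassium channel in beta cells, had 70.1 to 180.5 in wild-type and 93.9 to 170.4 in mutant embryos (0.20 ± 0.27), whereas the second receptor, *Abcc9*, and both pore genes, *Kcnj8* and *Kcnj11*, were too low to test. *Abca8b* had −0.12 ± 0.31. Of ABC proteins that carry other symbols, the peptide carrier *Tap1*, which loads MHC class I, rose from 69.3 ± 12.7 to 134 ± 34.1 (0.92 ± 0.21, adjusted p = 0.0289), a call that was lost without any 1 of wild-type replicates 3 to 6 or mutant replicates 2 to 5 (adjusted p up to 0.0785). Its partner *Tap2* (0.39 ± 0.42) and the chloride channel *Cftr* (−0.35 ± 0.30) were not called.

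Some members that were not called over all embryos had unlike values in the replicate sets, a difference in level that was not tested. *Abca9*, a lipid carrier of subfamily A, had 48.0, 71.3, 41.1, 124 and 122 in wild-type and 1.06, 4.16, 10.6, 101 and 48.0 in mutant embryos. Mutant replicates 2 to 4 were the lowest embryos, and in both genotypes replicates 5 and 6 were above replicates 2 to 4. Its log2 fold change of −2.37 ± 0.93 with limma was the largest in size in the family and did not pass (adjusted p = 0.208). With edgeR and DESeq2 it was −1.28 and −1.29, smaller in size than that of *Abcb1a* (1.79 and 1.80). In replicates 2 to 4 alone the limma value of *Abca9* was −3.41 (adjusted p = 0.0238), and in replicates 5 and 6 alone −0.81 (0.479). *Abcg8* gave −1.72 (adjusted p = 0.0215) in replicates 2 to 4 and −0.02 (0.991) in 5 and 6. Whether the genotype difference varied between the sets was tested as an interaction. No member passed (0 members and 7 genes of all tested), with an adjusted p of 0.451 for *Abcg8* and 0.685 for *Abca9*. With the replicate set as a term in the model, *Abca9* (0.0286), *Abca1* (0.048) and *Abcb11* (0.0281) were called lower and *Abcc12* (0.0463) was added to the 5 higher genes.

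**Figure D5:**
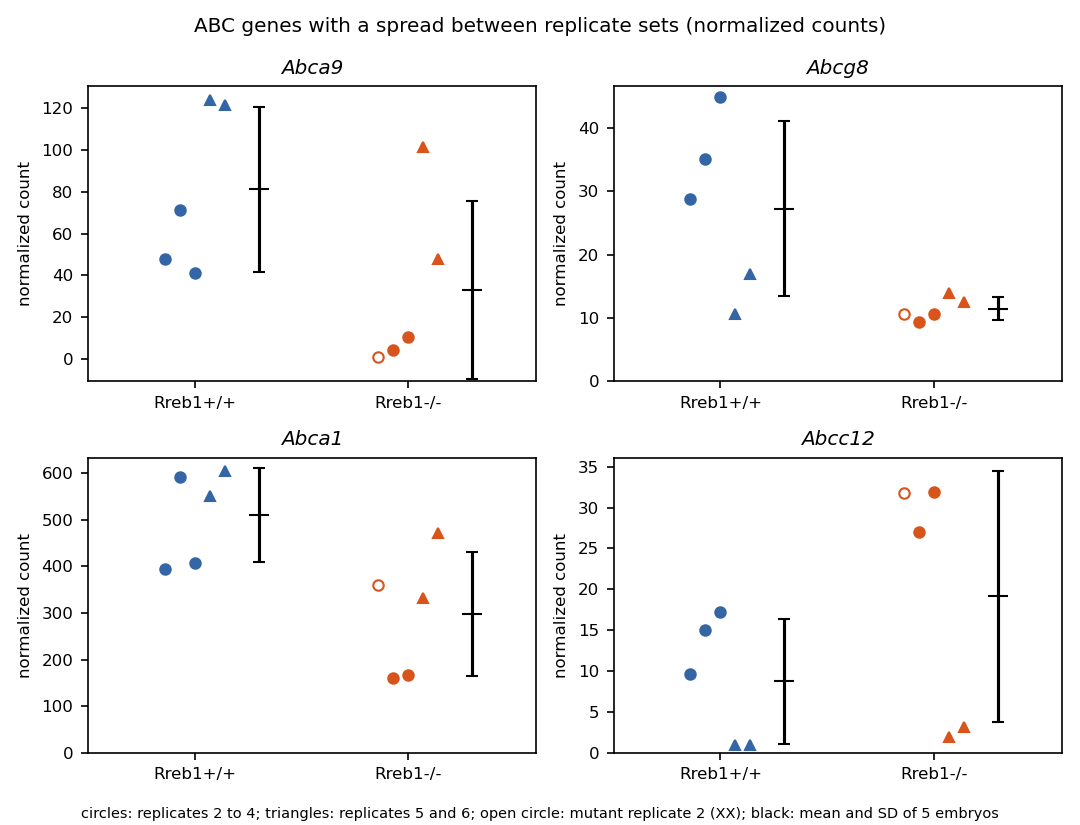
Normalized counts of *Abca9*, *Abcg8*, *Abca1* and *Abcc12* in each embryo; circles are replicates 2 to 4, triangles replicates 5 and 6, the open circle mutant replicate 2, and black bars give the mean and SD of 5 embryos (the lower bar of the *Abca9* mutants runs below 0). *Abcc12* is at 3.13 or less in all 4 embryos of replicates 5 and 6, and *Abca9* is lowest in mutant replicates 2 to 4.

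Sex differed with genotype in these libraries. With the log2 sum of the Y-linked counts as a covariate, 2 members were called higher and 0 lower (0.532% and 0.154% of all genes), namely *Abcb1b* (1.92, adjusted p = 0.0211) and *Abcc4* (1.03, 0.0113). The fold changes of the other called genes kept their sign while the adjusted p rose, to 0.174 for *Abcb1a* (1.97), 0.214 for *Abcg4* (1.01), 0.162 for *Abcd2* (0.80) and 0.321 for *Abcb11* (−0.58). The median SE over all genes was 0.133 without and 0.230 with the covariate. Mutant replicate 2 was the mutant with the *Xist* and Y-linked counts of the wild-type embryos. It lay on the mutant side in all 6 called genes, which the lack of overlap given above already implies. In *Abcb1b* and *Abcc4* it had the highest value of any embryo. A single embryo cannot separate sex from its own variation.

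Few cell type markers were called over all embryos, and more were called in replicates 2 to 4 alone. Of 9 VE markers, *Afp* was called lower and 8 were not called. Of the 9, 8 were below 0, with a median log2 fold change of −0.22 beside −0.02 over all genes tested. The summed VE level was 278710 to 317646 in wild-type and 209815 to 302860 in mutant embryos. Most of this sum came from *Apob* and *Cubn*. Of 8 parietal endoderm markers, *Plat* was called higher and 7 were not, with sums of 52484 to 68637 and 50122 to 109400. Mutant replicates 2 and 6 had 25430 and 23244 of *Sparc*, beside 13212 to 13827 in the other mutants. For *Lama1* they had 12932 and 11860, beside 3083 to 3739. *Plat* and *Stra6* did not set these embryos apart. Among mutants, the same embryos were the highest pair in *Abcb1a*, *Abcb11* and *Abcc4*, but not in *Abcb1b*, *Abcd2* or *Abcg4*. Over all embryos and without a block, no marker of epiblast, primitive streak, extraembryonic mesoderm, trophoblast, primitive blood, endothelium, neurectoderm or maternal tissue was called (limma). All 6 primitive blood markers were below 0 (median −1.88), as were 5 of 6 endothelial markers (−0.47). Above 0 were 5 of 6 epiblast markers (0.32) and 5 of 7 streak markers (0.36).

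In replicates 2 to 4 alone, the epiblast markers *Tdgf1* and *Fgf5* and the streak marker *Eomes* were called higher in mutants. *Eomes* had 1560, 1623, 1928, 720.2 and 758 in wild-type and 5858, 4821, 4549, 747 and 642 in mutant embryos. Mutant replicates 2 to 4 were the highest embryos, and replicates 5 and 6 were low in both genotypes. Its log2 fold change was 1.57 (adjusted p = 0.00238) in replicates 2 to 4 and −0.09 (0.815) in 5 and 6, and the interaction with the replicate set passed (adjusted p = 0.0316). *Tdgf1* gave 3.38 (0.00561) and 0.07 (0.969), and *Fgf5* gave 1.95 (0.0172) and −0.41 (0.644), with interactions that did not pass (0.137 and 0.194). Epiblast markers summed to 18949 to 49463 in wild-type and 15105 to 50546 in mutant embryos, and streak markers to 3890 to 14137 and 3543 to 14410. In replicates 2 to 4 the primitive blood markers *Hbb-bh1*, *Gata1* and *Klf1*, the endothelial and blood factor *Tal1* and the neurectoderm marker *Sox1* were called lower, and in replicates 5 and 6 *Hbb-bh1* and *Hba-x* were. With the replicate block, 3 of 6 primitive blood markers, 1 of 6 endothelial markers (*Cdh5*) and 1 of 5 neurectoderm markers (*Pax6*) were called lower, and with the Y-linked covariate the streak marker *Tbx6* was (−1.85, adjusted p = 0.0402). Primitive blood markers summed to 1059 to 12401 in wild-type and 349 to 3024 in mutant embryos. Maternal and immune markers summed to at most 281.6, with *Prl8a2* and *Ptprc* at 0 in some embryos. The part of these cell types in the ABC differences was not tested.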

How the data were processed

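Per the labels and the study's methods, the authors mapped paired 50-base reads from stranded polyA libraries with STAR in a pair of passes, processed them with Picard, counted reads per gene with HTSeq and divided by DESeq size factors. Build and strand setting: not given in the sources used here. The deposited signal is this normalized count. Every value was a whole multiple of 1 read within 0.1 read, and 100% of values were recovered as reads for edgeR 4.0.16 and DESeq2 1.42.0. Genes whose mean reached 15 in either genotype were tested with limma 3.58.1 (R 4.3.3) on log2(normalized count + 1). P-values were adjusted over all genes by Benjamini-Hochberg. The added 1 shrinks differences at low counts. Even so, limma values were not always the smaller ones, as *Abca9* had −2.37 beside −1.28 with edgeR and −1.29 with DESeq2. Embryos are separate animals. Replicate numbers come from the titles. Deviations of same-numbered embryos from their genotype means correlated at 0.253 to 0.459 in 5 pairs. Wild-type and mutant embryos of unlike number within a replicate set (2 to 4, or 5 and 6) correlated at −0.00307 to 0.492. These values therefore do not single out the number from the set. The number was also fitted as a block. Positions are from GENCODE M21 (GRCm38), and coding alignments from Biopython 1.88 (Python 3.11.15). The fit was tested on simulated data. Named are members called by limma, edgeR or the block, the most abundant pair and the largest uncalled change per subfamily, *Abcb1a*, *Abcb1b* and *Abcg4* (listed by the study as changed in these same embryos, hence not independent) and called partners. Some genes that the rule also names are not reported here. The members and lists were chosen with earlier results of these data known. Alternatives were edgeR, DESeq2, TMM, quantile normalization, other pseudocounts, filters and thresholds, the block, a Y-linked covariate, the replicate set, and subsets of embryos. The interaction with the replicate set and the chromosome 5 window were added after the values were seen.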

Additional observations from a re-analysis of the deposited data

Results flagged for a closer look

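Among the 76 groups of 5 embryos of the tested members, 2 held 1 embryo far from the others. This is below the rate of about 1 in 20 groups that chance gives. *Abcb4* had 54.4 normalized counts in wild-type replicate 4, beside 32.6 to 38.1 in the other wild-type embryos. *Abcc5* had 5782 in wild-type replicate 5, beside 4935 to 5133 in the others. Neither gene was called.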

How the results depend on the processing

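Of the members called, 5 were higher and 1 lower, in 4 subfamilies and 5 role lists. The higher count was 5 with edgeR, DESeq2, TMM, quantile normalization, both other pseudocounts and both other filters, and 6 with the replicate block. It was 3 at an adjusted p under 0.01, 2 with the Y-linked covariate, 3 in replicates 2 to 4 and 1 in replicates 5 and 6, with role lists at the same 4 values and subfamilies at 2 with the covariate and 1 in replicates 5 and 6. The lower count was 0 with no filter, with a mean of at least 50 (which leaves *Abcb11* untested), at 0.01, with the covariate and in replicates 5 and 6, 3 with the replicate set as a term, 2 in replicates 2 to 4, and 0 to 1 leaving out each embryo. The fit with the replicate block changed the calls of *Abcc2*, *Abca2* and *Abcb11* and no other member. Partner genes higher were 4, but 1 with the covariate and 2 in replicates 5 and 6. Partner genes lower were 0, but 3 with DESeq2 (*Nr1h3*, *Alas1* and *Hsd17b4*), 1 with quantile normalization, 1 with the replicate block, 2 with the replicate set and 0 to 1 leaving out each embryo. Fewer embryos enter the subsets, and otherwise the cause was not tested.

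Log2 fold changes near 0 turned sign in members that were not called. In replicates 5 and 6 alone they were 0.0504 for *Abca3*, −0.0927 for *Abcc1*, 0.35 for *Abcc10*, 0.17 for *Abcc6*, −0.10 for *Abce1*, 0.14 for *Abcg1* and 0.30 for *Abcg5*. With the covariate they were −0.37 for *Abca7*, 0.0645 for *Abca8b*, 0.0560 for *Abcb10*, −0.0077 for *Abcc1*, 0.0634 for *Abcd3*, 0.18 for *Abcg2* and 0.19 for *Abcg5*. *Abca7* was −0.0294 with quantile normalization, and *Abca8b* was 0.20 in replicates 2 to 4. Leaving out each embryo gave −0.0505 to 0.108 for *Abca7*, −0.294 to 0.108 for *Abca8b*, −0.0454 to 0.0869 for *Abcc1* and −0.312 to 0.062 for *Abcc10*. The low depth of *Abcb1a*, *Abcg4* and *Abcb11* limits how small a change could be seen.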
